A study of Mus musculus with 16 samples.

Results

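A set of 10 marker genes of fat cells was followed in mouse adrenal glands. It held Adipoq, Plin1, Cidec, Fabp4 and Pparg, which white and brown fat cells share, Lep, Retn and Cfd, used here as white fat markers, and Ucp1 and Cidea, used as brown fat markers. The genes were taken by name, and all 10 were found among the 54838 genes of the count table and passed the filter on low counts. Their RNA was measured by bulk sequencing in adrenals of 16 mice, 4 weeks old and of mixed genetic background. Female and male mice each formed a control group and an Rspo1 gain-of-function (GOF) group, with 4 individual mice in each of the 4 groups. R-spondin 1, the product of Rspo1, is released by cells and enhances WNT signals. The design compares both sexes in both genotypes. The labels name neither the promoter nor the allele behind the gain of function, do not give the genotype of the controls any further, and do not say how the fat around the glands was handled at dissection.

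White fat cells store triglyceride in 1 large droplet and release leptin, adiponectin, resistin and adipsin into the blood. Brown fat cells hold many small droplets and burn fatty acids for heat through UCP1, an uncoupling protein of the inner mitochondrial membrane. Both types depend on PPARgamma, the nuclear receptor that drives and maintains fat cell differentiation. Mouse adrenals lie embedded in fat that can hold white and brown fat cells, while cells of the adrenal cortex carry lipid droplets of their own, filled with cholesterol esters for steroid synthesis.

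Library totals ran from 31275146 to 43003968 counts. Rspo1 lay between 353 and 971 CPM (count over the TMM-scaled library total) in the 8 GOF libraries and between 3.19 and 48.2 CPM in the 8 control libraries, and the sex-linked transcripts Xist and Ddx3y matched the sex labels in all 16. Markers of the adrenal cortex, the labelled tissue, were present in every library, with a summed level of 34720 to 55730 CPM over 8 genes. Several libraries stood apart. A list of 12 kidney tubule genes summed to 1115 CPM in female control 1 and 189 in female control 3, against at most 3.57 in the other 14 libraries. A list of 15 liver genes summed to 10500 CPM in male control 2, against at most 784 elsewhere, and a skeletal muscle list to 77.2 CPM there, against at most 4.35. The 784 CPM was in male control 1, where Cyp2e1 alone held 747 CPM of it. A macrophage list summed to 1789 CPM in male GOF 1, against at most 727 in the other 15 libraries. The markers of fat and of brown fat also set male control 1 and female GOF 1 apart, as described with Ucp1. Replicate numbers only name the libraries. The sample titles fall into 4 ranges of numbers whose meaning the labels do not give, and values within those ranges are given where both groups of a comparison had libraries in one.

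The start regions of 3 of the genes are shown, 1 from each class, because genes of all 3 classes fell in the comparisons that follow. Each window holds the 250 bases before the RefSeq start on GRCm38.p6, plus strand, written 5′ to 3′. Capitals mark matches, on either strand, to 4 motifs: TTGCGCAA, a palindrome bound by C/EBP factors, AGGTCA, the core site of nuclear receptors such as PPARgamma with RXR, CCAAT, and TATAA. The windows are chr16:23146286-23146535 for Adipoq, chr6:29059971-29060220 for Lep and chr8:83290098-83290347 for Ucp1.
Adipoq: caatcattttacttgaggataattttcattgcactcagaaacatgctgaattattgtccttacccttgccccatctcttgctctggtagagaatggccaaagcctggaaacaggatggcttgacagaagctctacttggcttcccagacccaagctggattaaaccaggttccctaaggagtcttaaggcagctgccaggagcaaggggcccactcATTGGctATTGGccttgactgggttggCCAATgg
Lep: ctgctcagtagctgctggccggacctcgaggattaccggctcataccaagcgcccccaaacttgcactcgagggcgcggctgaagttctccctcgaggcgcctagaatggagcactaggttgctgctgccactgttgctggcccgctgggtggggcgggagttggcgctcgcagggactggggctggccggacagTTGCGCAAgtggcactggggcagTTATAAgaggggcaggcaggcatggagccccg
Ucp1: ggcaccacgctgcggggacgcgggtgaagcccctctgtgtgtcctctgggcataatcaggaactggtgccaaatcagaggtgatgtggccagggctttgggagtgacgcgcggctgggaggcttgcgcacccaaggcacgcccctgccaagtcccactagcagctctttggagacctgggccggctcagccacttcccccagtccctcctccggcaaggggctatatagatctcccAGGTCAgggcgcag
The Adipoq window held 3 matches to CCAAT, at -34, -27 and -7 from the start. The Lep window held 1 match to TTGCGCAA, at -55 to -48, and 2 overlapping matches to TATAA beginning at -32 and -31. The Ucp1 window held 1 match to AGGTCA, at -14 to -9. Among 32851 promoter windows of that length, 0.16% held TTGCGCAA, 14.02% AGGTCA, 33.85% CCAAT and 22.78% TATAA, so TTGCGCAA was the rarest of the 4 motifs and CCAAT the commonest. The promoter table matched 8 of the 10 genes, with 11 windows in all; Fabp4 and Cidea are named only. Over the 11 windows, AGGTCA was present for 2 genes, Ucp1 and Pparg, and TTGCGCAA for Lep alone. A match describes the letters of the window and is not a measured binding site.

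Fat marker RNA was lower in GOF than in control adrenals of both sexes. Of the 10 genes, 9 fell in females and 10 in males, against a background of 20.6% of all genes tested called lower in females and 21.8% in males. The test was edgeR's quasi-likelihood F test, and all adjusted p are Benjamini-Hochberg values from it over 18214 genes. The GOF and control libraries did not overlap for 9 genes in females and 8 in males, where 20.4% and 19.1% of all genes had every GOF library below every control. The median log2 fold change of the 10 genes was -2.26 in females and -3.88 in males, beside medians of 0.05 and 0.01 over all genes tested. Over all genes tested, 39.6% were called in either direction in females and 36.9% in males, and 48.0% and 41.1% of those calls were higher in GOF. The share higher was 60.7% and 61.3% when limma was run on log2(FPKM + 1), and 42.7% and 51.2% with upper-quartile factors. In this design less RNA per fat cell and fewer fat cells in the sample cannot be told apart.

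**Figure D1:**
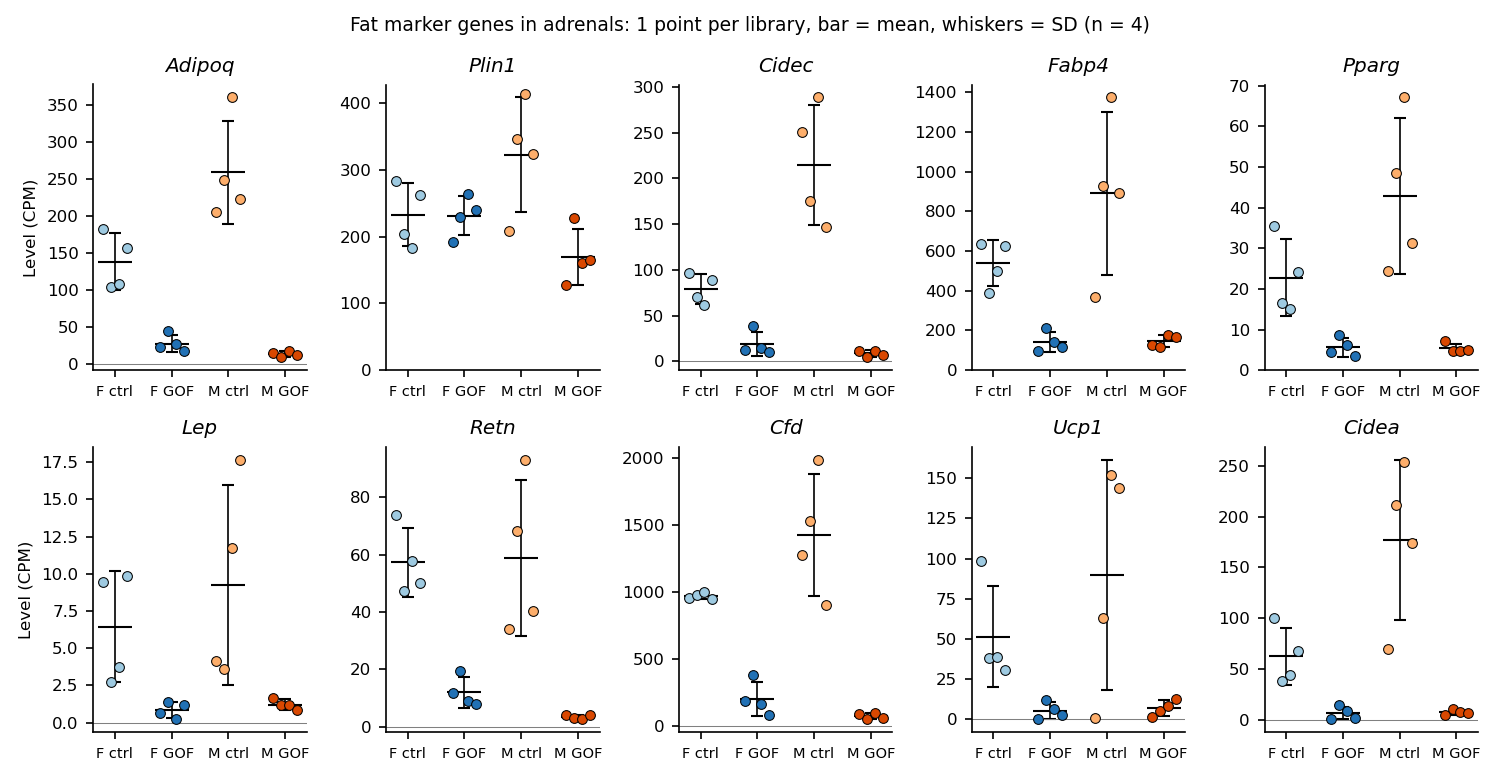
Level of each gene in CPM (vertical axis, linear) in the 4 groups, with 1 point per library, a bar at the mean and whiskers of 1 SD (n = 4). For 9 genes the female GOF points lie below all female control points, while Plin1 overlaps; Ucp1 in male control 1, at 0.922 CPM, lies below all 4 male GOF points.

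Of the genes shared by white and brown fat, Adipoq encodes adiponectin, the most abundant hormone of fat cells (ENSMUSG00000022878, chromosome 16, 23146536 to 23158028, GRCm38). Its level was 183, 105, 109 and 158 CPM in female controls 1 to 4 and 22.9, 45.1, 26.9 and 17.5 CPM in female GOF 1 to 4. In males it was 205, 249.3, 360.1 and 223 CPM in controls and 15.6, 9.76, 18.1 and 12.1 CPM in GOF. Every GOF library lay below every control of either sex, and the highest GOF value was that of female GOF 2. Adipoq fell 4.93-fold in females (log2 fold change -2.30, SE 0.30, adjusted p = 4.81e-05) and 18.6-fold in males (-4.22, SE 0.33, adjusted p = 7.57e-07).

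Cidec, a protein that joins lipid droplets into larger ones (ENSMUSG00000030278, chromosome 6, 113424634 to 113435760), had a like pattern. Female controls held 96.6, 70.1, 61.6 and 89.4 CPM and female GOF 12.4, 39.0, 15.2 and 10.1 CPM. Male controls held 250.4, 175, 288.5 and 146 CPM and male GOF 11.7, 4.65, 11.8 and 7.36 CPM. Again no GOF library reached the lowest control, at 61.6 CPM. Cidec fell 4.13-fold in females (log2 fold change -2.05, SE 0.40, adjusted p = 0.00123) and 24.2-fold in males (-4.59, SE 0.45, adjusted p = 3.8e-06), the largest fold change among the 10 genes in males.

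Fabp4, the fatty acid carrier aP2 of the fat cell cytosol (chromosome 3, 10204088 to 10208576), ranged from 390.1 to 634 CPM in female controls and from 98.9 to 211 in female GOF. Its male controls ranged from 369.8 to 1374 CPM, with the lowest value in male control 1, and male GOF from 118 to 175. Fabp4 fell 3.79-fold in females (log2 fold change -1.92, SE 0.33, adjusted p = 0.000449) and 6.07-fold in males (-2.60, SE 0.34, adjusted p = 4.07e-05). Fabp4 and Pparg are also made by cells other than fat cells, capillary endothelium and macrophages among them.

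Pparg, the receptor itself (chromosome 6, 115360951 to 115490399), ranged from 15.1 to 35.5 CPM in control females, 3.40 to 8.72 in GOF females, 24.3 to 67.1 in male controls and 4.75 to 7.10 in male GOF. It fell 4.00-fold in females (log2 fold change -2.0, SE 0.37, adjusted p = 0.000674) and 7.88-fold in males (-2.98, SE 0.38, adjusted p = 3.02e-05). Gene-level counts do not separate the fat-cell promoter of Pparg from its other starts.

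Plin1, the perilipin that coats lipid droplets and gates lipolysis (ENSMUSG00000030546, chromosome 7, 79720218 to 79732903), departed from the other 9 genes. Its level was 283, 204, 182 and 262 CPM in female controls and 192.5, 230.2, 264 and 239.7 CPM in female GOF. The ranges overlapped over most of their length, with means of 233 ± 47.5 and 232 ± 29.7 CPM (SD, n = 4). Plin1 did not pass the test in females (log2 fold change -0.01, SE 0.21, adjusted p = 0.981), and the sign of that value changed among 29 alternatives, from -0.12 to 0.10.

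In males Plin1 was 208, 347, 414 and 324 CPM in controls and 128, 228, 161 and 165 CPM in GOF. Male GOF 2 lay above male control 1, and the other GOF libraries lay below all controls. Plin1 fell 1.90-fold in males (log2 fold change -0.93, SE 0.21, adjusted p = 0.00323), the smallest fall among the 10 genes. Per library, Plin1 was 1.55 to 1.94 times the CPM of Adipoq in female controls and 1.01 to 1.45 times in male controls, against 5.10 to 13.7 times in female GOF and 8.19 to 23.4 times in male GOF. So the groups did not overlap in that ratio within either sex, and the share of Plin1 among fat marker counts was higher in GOF. Bulk counts do not show which cells of the gland held the Plin1 RNA.

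**Figure D2:**
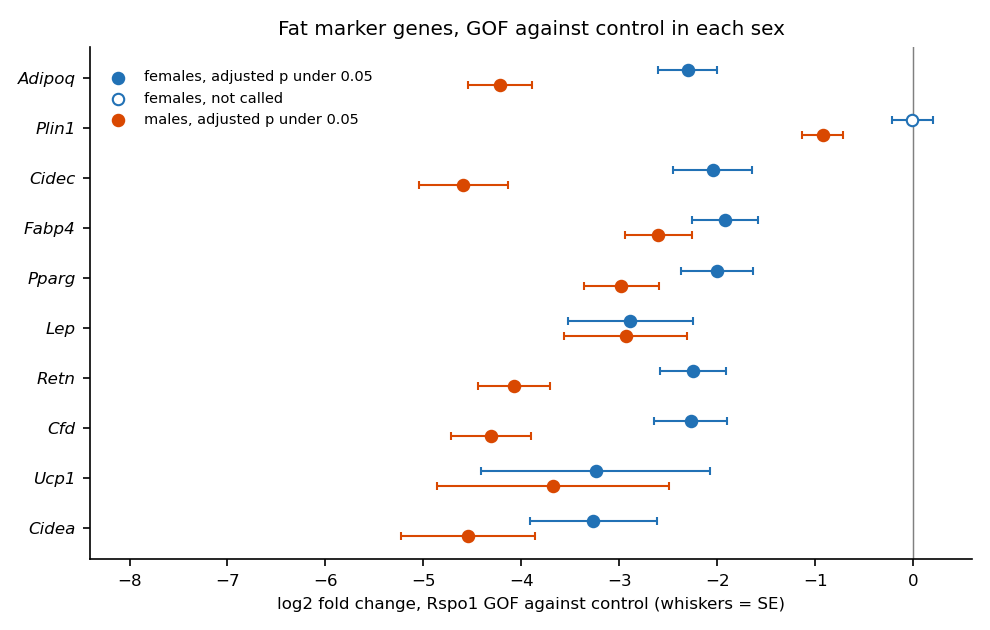
Log2 fold change of each gene, GOF against control (horizontal axis), in females and males, with whiskers of 1 SE; filled points have an adjusted p under 0.05. Plin1 sits at -0.01 in females and -0.93 in males, to the right of the other 9 genes, which lie between -1.92 and -4.59.

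Among the white fat markers, Cfd encodes adipsin, a serine protease that is complement factor D (ENSMUSG00000061780, chromosome 10, 79890853 to 79892655). It was the steadiest of the 10 genes in female controls, at 957, 978, 999.7 and 948 CPM, and held 185, 378, 159.5 and 81.3 CPM in female GOF. Male controls spread more widely, at 1278, 1526, 1987 and 899.8 CPM, and male GOF held 85.7, 47.7, 92.4 and 61.4 CPM. No GOF library came near the controls of its sex: the highest was female GOF 2. Cfd fell 4.83-fold in females (log2 fold change -2.27, SE 0.38, adjusted p = 0.000306) and 19.8-fold in males (-4.31, SE 0.41, adjusted p = 2.7e-06).

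Retn, which encodes resistin, a small secreted protein (ENSMUSG00000012705, chromosome 8, 3655770 to 3660110), was at 73.9, 47.5, 58.0 and 49.98 CPM in female controls and 11.9, 19.6, 8.86 and 7.80 CPM in female GOF. In males the controls held 34.1, 68.4, 93.1 and 40.3 CPM and GOF 4.21, 3.23, 2.58 and 3.95 CPM. All male GOF values lay below all female GOF values, and both below every control. Retn fell 4.75-fold in females (log2 fold change -2.25, SE 0.34, adjusted p = 0.00014) and 16.9-fold in males (-4.08, SE 0.37, adjusted p = 1.91e-06).

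Lep, which encodes leptin, the hormone that reports fat stores to the brain (ENSMUSG00000059201, chromosome 6, 29060220 to 29073877), was the scarcest of the 10 genes by group mean. Its 16 libraries held between 7 and 650 counts. Female controls were at 9.45, 2.74, 3.72 and 9.83 CPM and female GOF at 0.643, 1.40, 0.209 and 1.2 CPM. Male controls were at 4.12, 3.57, 11.7 and 17.7 CPM and male GOF at 1.67, 1.171, 1.176 and 0.815 CPM. Controls differed several-fold among themselves in both sexes, and still none overlapped GOF. Lep fell 7.40-fold in females (log2 fold change -2.89, SE 0.63, adjusted p = 0.00246) and 7.65-fold in males (-2.94, SE 0.63, adjusted p = 0.0022).

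The brown fat markers were present in control adrenals and low in GOF. Cidea, a lipid droplet protein abundant in brown fat (ENSMUSG00000024526, chromosome 18, 67343604 to 67367785), was at 99.99, 37.9, 44.4 and 67.4 CPM in female controls and 1.17, 14.2, 8.29 and 2.06 CPM in female GOF. Male controls held 69.7, 211, 254 and 174 CPM and male GOF 4.79, 10.8, 8.06 and 6.70 CPM. The lowest control of either sex, at 37.9 CPM, lay above the highest GOF library. Cidea fell 9.61-fold in females (log2 fold change -3.26, SE 0.65, adjusted p = 0.00125) and 23.3-fold in males (-4.54, SE 0.68, adjusted p = 0.000135).

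Ucp1 (ENSMUSG00000031710, chromosome 8, 83290352 to 83298452) was the least even gene within groups. Female controls held 98.5, 38.3, 38.5 and 30.7 CPM and female GOF 0, 12.3, 6.50 and 2.74 CPM. The 0 of female GOF 1 allows up to 3 counts, or 0.0876 CPM, counting error only. Male controls held 0.922, 63.0, 152 and 144 CPM and male GOF 1.35, 5.48, 8.58 and 12.8 CPM. In females the groups did not overlap; in males male control 1 lay below every GOF library, and the other 3 controls lay above all of them.

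Ucp1 fell 9.46-fold in females (log2 fold change -3.24, SE 1.17, adjusted p = 0.0395) and 12.8-fold in males (-3.68, SE 1.182, adjusted p = 0.0252). Among the genes called, Ucp1 had the largest adjusted p in each sex. The female call was lost in 12 of 28 alternatives, at adjusted p of 0.0502 to 0.19, and the male call in 11 of 28. Without female control 1 the female adjusted p was 0.101, and without female GOF 1 it was 0.0684. Without male control 1 the male log2 fold change was -4.09 (adjusted p = 0.00508). Without both male control 1 and female GOF 1, a setting chosen after the data were seen, it was -2.83 in females (adjusted p = 0.0102) and -4.09 in males (adjusted p = 0.000848). The direction was lower in every alternative run in both sexes.

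Male control 1 and female GOF 1 had little Ucp1 while other fat markers were present. In male control 1 the mean of the other 3 controls was 129.7 times its Ucp1 value, but 1.35 times its Adipoq, 3.06 times its Cidea and 2.88 times its Fabp4. Its Cidec, Cfd and Lep lay within the range of the other 3, and its remaining 7 fat markers lay below it, as did 35.7% of all genes tested. In female GOF 1, Ucp1, Cidea, Fabp4 and Plin1 lay below the other 3 GOF libraries and 6 genes lay within their range, Adipoq among them at 22.9 CPM, where 28.0% of all genes tested lay below it. The ratio of Ucp1 to Adipoq was 0.0045 in male control 1 and 0 in female GOF 1, against 0.0867 to 1.055 in the other 14 libraries. Both ratios stand outside the range of every other library in the series.

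**Figure D3:**
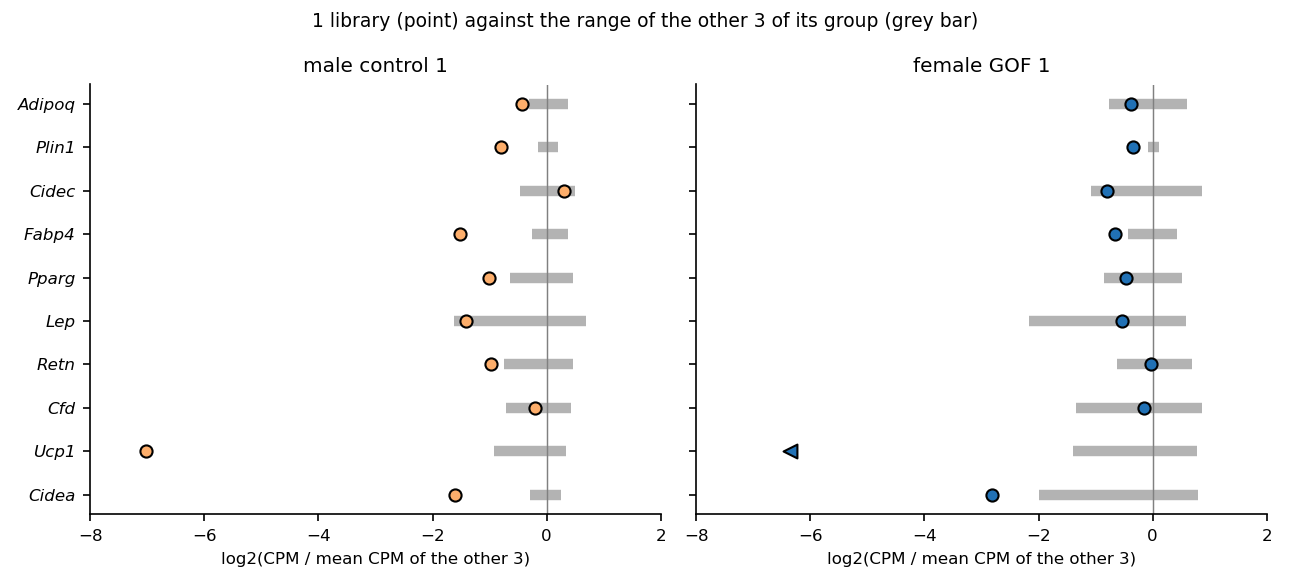
Level of each gene in male control 1 (left) and female GOF 1 (right) as log2 of its CPM over the mean CPM of the other 3 libraries of the group; the grey bar spans those 3, and the triangle marks the upper limit that 0 counts of Ucp1 allow. Ucp1 lies far left of its bar in both, while Adipoq, Cidec and Cfd lie in or beside theirs.

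Other genes of brown fat and of fat synthesis were also low in male control 1. Otop1, a proton channel found in brown fat, was at 0.584 CPM there against 8.77 to 16.6 in the other 3 male controls, and Cox7a1, a muscle and brown fat form of a cytochrome c oxidase subunit, was at 7.81 against 43.9 to 79.3. Fasn, the fatty acid synthase, was at 473 CPM against 2775 to 3896, and Thrsp, a nuclear protein of lipogenic tissue, was at 50.1 against 353 to 460.5. In all, 14 of 17 genes of the brown fat programme and 15 of 21 fat cell lipid enzymes and transporters lay below the range of the other 3 male controls, where 35.7% of all genes tested lay below it and 25.3% above. All 9 endothelial genes did so too, and 2 of the lipid genes, Acly and Me1, lay above that range. All 8 adrenal cortex markers lay above it as well, with a summed level of 55730 CPM against 34720 to 36860, Star, the cholesterol carrier of steroid synthesis, at 16040 against 9230 to 9875 and Cyp11b1, which makes corticosterone, at 6769 against 3083 to 3361. What sets this library apart was not tested.

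Female GOF 1 did not show the same set of low genes. Otop1 was at 0 counts there, against 0.143 to 1.53 CPM in the other 3 female GOF libraries, and Cox7a1 at 9.76 CPM against 19.1 to 27.8. Of the brown fat programme 9 of 17 genes lay below the range of the other 3, as did 6 of 21 lipid enzymes and transporters. Over all genes tested, 28.0% lay below that range. Some of the 9 were near the floor, such as Lhx8, at 0 CPM against 0.0571 to 0.0686. Fasn, at 567 CPM, lay within the range. Of the macrophage markers 9 of 10 lay below it, and no cortex marker did. No test compared the 2 libraries.

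Levels can be compared between genes only per length, and the FPKM deposited by the authors gave this order. In female controls Cfd was highest, at a mean of 1045 FPKM, and Lep lowest, at 3.41, and neither range met that of its neighbour. In between, Fabp4 (203 FPKM), Plin1 (156) and Adipoq (147) overlapped one another, and below them Cidec (67.1), Retn (55.0), Cidea (52.0), Ucp1 (30.5) and Pparg (18.9) overlapped from neighbour to neighbour. Male controls also had Cfd first, at 1541 FPKM, and Lep last by mean, at 4.98, both apart from their neighbours in that order. Ucp1 in male control 1, at 0.539 FPKM, still lay below the range of Lep, 1.85 to 9.67. The 8 genes between them, from Fabp4 at 339.5 FPKM over Adipoq (276), Plin1 (218.5), Cidec (182.5), Cidea (149), Retn (57.0) and Ucp1 (54.2) to Pparg (35.7), overlapped from neighbour to neighbour.

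In female GOF Cfd averaged 226 FPKM (91.7 to 428) and Plin1 161 (134 to 181), followed by Fabp4 at 55.8, Adipoq at 30.9, Cidec at 16.9 and Retn at 12.1. In male GOF the order opened with Plin1, at 124.5 FPKM (91.3 to 164), and Cfd, at 84.8 (55.1 to 113), whose ranges overlapped. Retn stood ninth there, at 3.65 FPKM, below Pparg (4.89) and Ucp1 (4.59). Lep was last by mean in all 4 groups. The Fabp4 values rest on a length of 2564 bases, the mean of a coding transcript of 896 bases and a retained-intron transcript of 4231 bases, so its FPKM is low relative to the coding transcript.

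Males and females differed in fewer of these genes than the genotypes did. In controls, 2 of the 10 genes were called higher in males and 0 lower, beside 13.5% of all genes called higher and 9.89% lower. They were Adipoq (1.87-fold, log2 difference 0.90, SE 0.29, adjusted p = 0.0344) and Cidec (2.71-fold, 1.44, SE 0.39, adjusted p = 0.0178), and in both every male control lay above every female control, as for 14.4% of all genes. Cidea was at 177 ± 78.8 CPM in male and 62.4 ± 28.1 in female controls (SD, n = 4) and did not pass (log2 difference 1.5, SE 0.59, adjusted p = 0.0794). At an unadjusted p under 0.05 were also Fabp4, Pparg and Plin1, with log2 differences of 0.73, 0.91 and 0.47. Retn did not differ beyond its error, at 59.0 ± 27.2 CPM in males and 57.3 ± 11.9 in females.

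The control comparison depended on single libraries. Without male control 1 the count rose from 2 to 6, and it was 0 without female control 2, without female control 3 or without male control 3. It was also 0 without the 3 libraries high in kidney or liver genes, and 0 with the title number range as a covariate. Within the only range that holds controls of both sexes, 3 males against 1 female, 3 of the 10 genes were higher in all males, as were 33.0% of all genes, and none was lower in all.

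In GOF adrenals the called differences between the sexes ran the other way. Of the 10 genes, 3 were called lower in males and 0 higher, beside 16.3% of all genes called lower and 13.3% higher. Retn was 3.46-fold lower (log2 difference -1.79, SE 0.34, adjusted p = 0.00142), Cfd 2.80-fold lower (-1.48, SE 0.37, adjusted p = 0.00713) and Adipoq 2.02-fold lower (-1.02, SE 0.29, adjusted p = 0.0176). Of the 3, Retn alone had no overlap between the sexes, as had 15.7% of all genes in that direction. Cidec came next (-1.11, SE 0.41, adjusted p = 0.0518). Within the only title range with GOF libraries of both sexes, 2 males against 1 female, 4 of the 10 genes were lower in both males and 5 higher, where 38.4% of all genes were lower and 37.8% higher. Adipoq, Retn, Cfd and Cidec were the 4 lower ones, and the female library was female GOF 1. The brown markers did not pass, with log2 differences of 0.22 (SE 0.62) for Cidea and 0.37 (SE 1.11) for Ucp1. Adipoq lost its call in 6 of 29 alternatives. Among them were the fits without female GOF 2 (log2 difference -0.68, adjusted p = 0.0712) and without male GOF 2 (-0.87, adjusted p = 0.055). The fit without male GOF 4 was another (-0.94, adjusted p = 0.0539). With the title number range as covariate, Adipoq (-1.24, adjusted p = 0.114) and Cfd (-1.44, adjusted p = 0.0742) were both not called.

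The interaction of sex and genotype asked whether the fall differed between males and females. It was called for 4 genes, all with a larger fall in males, beside 2.61% of all genes called in that direction. The difference of log2 fold changes was -2.55 for Cidec (SE 0.56, adjusted p = 0.0231), -2.04 for Cfd (SE 0.51, adjusted p = 0.0388), -1.92 for Adipoq (SE 0.41, adjusted p = 0.0191) and -1.83 for Retn (SE 0.47, adjusted p = 0.0408). For Lep the difference was -0.05 (SE 0.87), too wide an error to show a like fall. For Fabp4 (-0.68, SE 0.46), Pparg (-0.98, SE 0.50), Plin1 (-0.92, SE 0.30), Cidea (-1.28, SE 0.85) and Ucp1 (-0.43, SE 1.53) the difference was negative and not called.

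These interaction calls were fragile. Those of Cfd and Retn were each lost in 20 of 28 alternatives, that of Cidec in 5 and that of Adipoq in 4, with adjusted p of up to 0.224. The count of 4 fell to 2 without female control 2, female control 4, female GOF 2, female GOF 3, male control 2, male control 3, male GOF 1 or male GOF 3, to 1 without female control 3 and to 0 without male GOF 4. The difference stayed below 0 for all 4 genes in every alternative.

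Genes that serve fat storage were lower in GOF as well. Of 21 lipid enzymes and transporters of fat cells, 21 fell in females and 20 in males, beside the 20.6% and 21.8% of all genes called lower, with median log2 fold changes of -1.77 and -1.85. Fasn lay between 944 and 3322 CPM in female controls and 423 and 937 in female GOF, and fell 3.46-fold in females (adjusted p = 0.0127) and 5.90-fold in males (adjusted p = 0.0017), where male control 1, at 473 CPM, overlapped GOF. Scd1, the desaturase that makes monounsaturated fatty acids, fell 6.14-fold and 8.06-fold (adjusted p = 0.00131 and 0.000519). Acly, which supplies acetyl-CoA from citrate, fell 1.53-fold and 1.51-fold (adjusted p = 0.0104 and 0.0134). Me1, malic enzyme, which supplies NADPH, fell 2.19-fold in females (adjusted p = 1.51e-05) and rose 1.28-fold in males (adjusted p = 0.0436), the 1 gene of the list that rose. Many of these enzymes work in steroid-producing cells as well.

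Of 10 fat cell regulators and receptors, 6 fell in females and 5 in males (all genes 20.6% and 21.8%). Cebpa, the C/EBP factor of fat cell differentiation, ranged from 94.7 to 181 CPM over the 8 controls and from 21.4 to 43.7 over the 8 GOF libraries, and fell 4.94-fold in females (adjusted p = 5.62e-06) and 5.53-fold in males (adjusted p = 2.42e-06). Adrb3, the adrenergic receptor of fat cells, fell 5.18-fold and 16.03-fold. Its ranges were 23.3 to 34.4 CPM in control females, 3.14 to 9.66 in GOF females, 34.1 to 53.7 in male controls and 1.56 to 3.43 in male GOF. Cebpb and Srebf1, regulators that act in many tissues, were not called in either sex, with log2 fold changes of -0.28 and -0.18 in females and -0.18 and -0.22 in males.

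Of 17 genes of the brown fat programme 15 were tested, and 8 fell in females and 12 in males (all genes 20.6% and 21.8%). Cox8b, a cytochrome c oxidase subunit typical of brown fat and heart, fell 9.31-fold in females (27.7 to 71.9 CPM against 1.86 to 11.2, adjusted p = 0.000571) and 18.9-fold in males (43.99 to 180.1 against 3.89 to 7.63, adjusted p = 7.8e-05). Cox7a1 fell 4.05-fold in males (adjusted p = 0.00569), where male control 1 overlapped GOF, and was not called in females (log2 fold change -0.79, adjusted p = 0.211). Kcnk3, a potassium channel that the adrenal cortex also expresses, and Slc27a1, a fatty acid transporter, were not called in either sex.

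Of 6 fat progenitor markers, 4 fell in females and 2 in males, beside the 20.6% and 21.8% of all genes called lower, with medians of -1.08 and -0.86. Pdgfra, the receptor that marks fat progenitors and other fibroblasts, fell 3.16-fold in females (46.0 to 78.1 CPM against 18.2 to 19.7, adjusted p = 3.14e-06) and 2.78-fold in males (adjusted p = 4.89e-06), and Pi16, of interstitial fibroblasts, fell 3.07-fold and 3.62-fold. Ly6a and Cd34, which endothelial cells share, were not called in either sex, although for Cd34 every female GOF library lay below every female control.

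Droplet proteins that steroid-producing cells also use moved in both directions. Of 10 genes 9 were tested, with 2 higher and 4 lower in females and 1 higher and 4 lower in males, beside 19.0% and 15.2% of all genes called higher and the 20.6% and 21.8% called lower. The medians were -0.04 in females and -0.29 in males. Plin4, a perilipin abundant in white fat and named here after its values were seen, fell 11.99-fold in females (149 to 179 CPM against 7.74 to 21.9, adjusted p = 1.39e-05) and 2.93-fold in males (109 to 203 against 19.4 to 77.5, adjusted p = 0.00435). Soat1, which makes cholesterol esters in the adrenal cortex, rose 1.65-fold in females (585 to 743 CPM against 966 to 1145, adjusted p = 0.000112) and 1.71-fold in males (530.1 to 702.5 against 968 to 1100.0, adjusted p = 5.59e-05). Plin2 and Plin3, perilipins found in most cells, were not called in either sex. Bscl2, seipin, fell 1.76-fold and 1.62-fold.

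**Figure D4:**
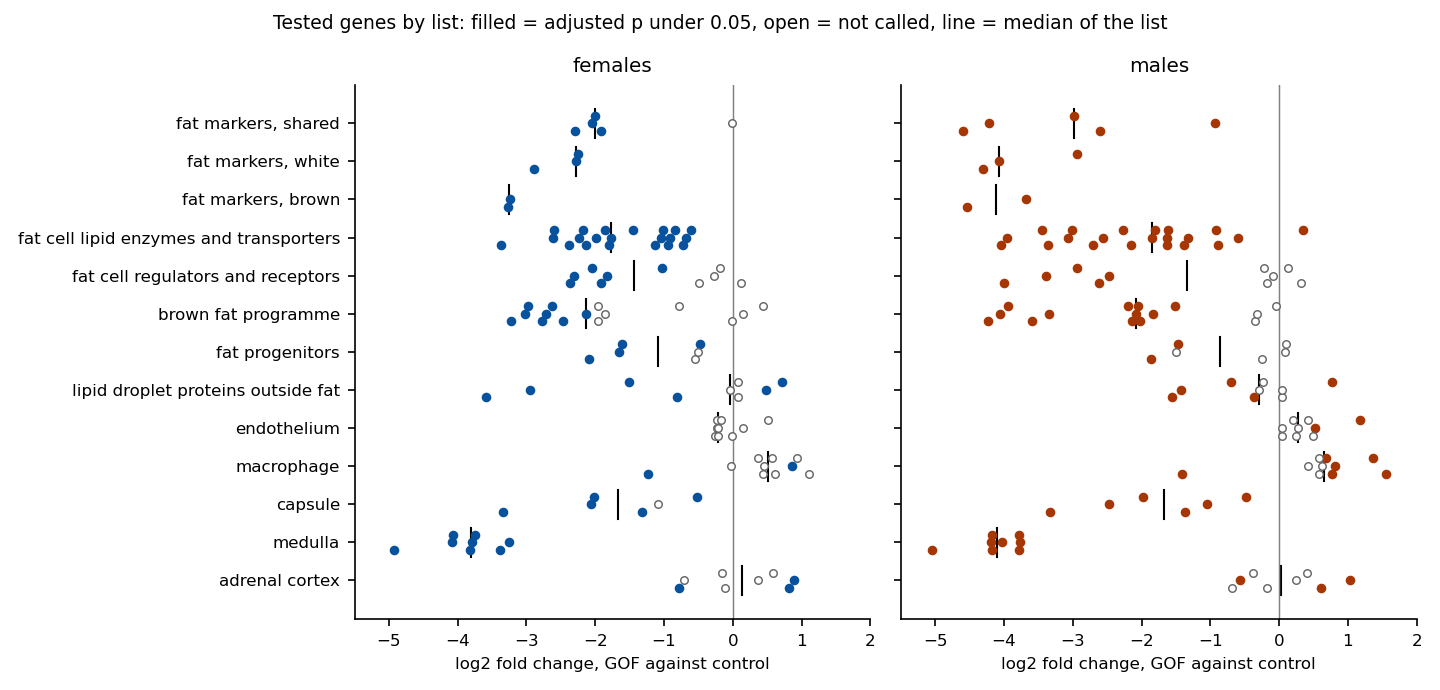
Log2 fold change, GOF against control (horizontal axis), of each tested gene in females (left) and males (right), by gene list; filled points have an adjusted p under 0.05 and the vertical line is the median of the list. The 10 fat markers (top 3 lines), the lipid enzymes other than Me1 in males, the capsule markers and the medulla markers lie left of 0. Cortex lies around 0, and endothelium lies around it in females and right of it in males.

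Markers of other cell types were counted in the same comparisons, where 20.6% of all genes were called lower and 19.0% higher in females and 21.8% and 15.2% in males. All 8 chromaffin cell markers of the adrenal medulla fell in both sexes, with medians of -3.81 in females and -4.10 in males; they summed to 5459 to 12320 CPM in control females, 235 to 882 in GOF females, 9038 to 12860 in male controls and 460 to 1006 in male GOF. Capsule markers fell in 5 of 6 genes in females and 6 of 6 in males, with medians of -1.67 and -1.68 and summed levels of 580.0 to 676 CPM in control females, 155.5 to 343 in GOF females, 858 to 2359 in male controls and 348.5 to 409 in male GOF. None of the medulla or capsule markers was at 0 in any library. Beside them, the summed level of the 10 fat markers was 1890 to 2471 CPM in control females, 481 to 959 in GOF females, 2444 to 5002 in male controls and 384 to 483 in male GOF. None of 9 endothelial markers was called in females, and 2 rose in males, Emcn and Plvap. Of 10 macrophage markers 1 rose and 1 fell in females, and 5 rose and 1 fell in males. Among 8 cortex markers 2 rose, Hsd3b1 and Nr5a1, and 1 fell, Star, in each sex, counts near those shares. Of 14 liver genes tested 1 fell in females and 14 in males, with medians of -1.81 and -6.27, and without male control 2 the count in males was 1 and the median -0.15. The liver list summed to 119.5 to 176.8 CPM in control females, 15.4 to 43.8 in GOF females, 182.9 to 10500 in control males and 9.02 to 93.8 in GOF males. A single gene, Cyp2e1, made up 747 of 784 CPM in male control 1 and 26.2 of 27.1 in female GOF 1. In those libraries the sum shows mostly that gene and not a liver level. The part of these cell types in the fat marker result was not tested.

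Within title number ranges the splits were small. In females, 9 of the 10 genes were lower in both GOF libraries than in all 3 controls of 1 range, as were 26.4% of all genes, with a median log2 ratio of -1.82. In another range, with 1 GOF library and 1 control, all 10 were lower, as were 46.7% of all genes. In males, 8 of 10 were lower in the 2 GOF than in the 3 controls of that second range, as were 25.5% of all genes, with a median of -4.26. In the last range, with 2 GOF males and 1 control, all 10 were lower, as were 41.6% of all genes, with a median of -3.69. Without the libraries high in kidney or liver genes (female control 1, female control 3 and male control 2), 8 of the 10 genes were called in females and 9 in males. The log2 fold change of Adipoq was then -2.22 in females and -4.25 in males. Ucp1 lost its call in both sexes, at -2.66 in females (adjusted p = 0.19) and -3.82 in males (adjusted p = 0.0554).

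Within groups, the fat markers varied together to a degree. Over the 45 pairs of the 10 genes, Pearson's r of the deviations of log2 CPM from the group means ran from -0.13 to 0.88, with a median of 0.50 (16 libraries that share depth and scaling; a description only). The highest value was that of Adipoq with Cidec, and Cfd with Cidec followed at 0.85. Ucp1 went with Fabp4 (0.82) and Cidea (0.81) more closely than with Adipoq (0.39), Cidec (0.15) or Cfd (0.10). Male control 1 and female GOF 1, far below their groups in Ucp1, weigh heavily in these values. Fabp4, Cidea and Plin1 also lay below the rest of the group in both libraries, while Cidec and Cfd lay within its range. Plin1 was nearest to Ucp1 (0.68) and Cidea (0.67), and was at -0.13 with Cidec. Lep followed none closely, with values of 0.02 to 0.42. Female control 1 was highest of its group in 8 of the 10 genes, female GOF 2 in 9 and male control 3 in 9, against 29.5%, 26.6% and 21.8% of all genes tested. Male control 1 was lowest in 7, against 35.7%.

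The genes whose deviations were most like those of Adipoq over the 16 libraries were Aqp7, the glycerol channel of fat cells, at 0.91, Sox6os at 0.90, Frem1 at 0.89, Ankef1 at 0.88, Tppp at 0.87, Car3, the carbonic anhydrase abundant in fat and muscle, at 0.86, and Megf6 and Sort1 at 0.85. Car3 averaged 1004 CPM in female controls and 178 in female GOF, and 1833 CPM in male controls and 95.7 in male GOF. Those most like Ucp1 were Nrk at 0.97, Otop1 at 0.95, Lgi2 at 0.93, Dpt and Pnpla3 at 0.91, and Iqgap3, Lrr1 and Adam12 at 0.90. The low Ucp1 of male control 1 and female GOF 1 weighs heavily in this list too. Likeness within groups did not mean a like difference between them: Iqgap3 was at 0.492 CPM in male control 1 and 3.71 in male control 2, and averaged 22.2 CPM in female GOF and 6.67 in female controls.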

How the data were processed

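Counts and FPKM were deposited by the authors for 16 adrenal libraries. The deposited counts are whole reads per Ensembl gene, without normalization. The FPKM deposited by the authors scale them by gene length and library total; dividing one by the other gave lengths that matched the mean transcript length of GENCODE M21 (GRCm38) within 0.5% in 33456 of 34180 genes. Symbols and coordinates come from that annotation, which held 54723 of 54838 identifiers. Per the labels' protocols, samples with a RIN of 7.0 or more were made into NEBNext Ultra libraries and read as 150 bp pairs. The submitters' processing notes name Bowtie2 2.2.3, TopHat2 2.0.12, HTSeq 0.6.1 and DESeq 1.18.0. The genome build and the strand setting are not given in the sources used here, so reads of overlapping antisense genes may be included.

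Each library is another mouse, and groups came from the sample labels. Of all genes, 34196 had a count and 18214 passed filterByExpr. The counts were fitted in edgeR 4.0.16 (R 4.3.3; robust glmQLFit and glmQLFTest) with TMM factors, a mean per group over all 16 libraries, and Benjamini-Hochberg adjustment at 0.05; the SE is the log2 fold change over the root of F. Levels are CPM over TMM-scaled totals. The 10 genes and all lists were chosen with earlier results of these data known. The further genes named are the 4 of each fat list with the highest mean FPKM over the controls, and the 8 most like Adipoq and the 8 most like Ucp1 by r of log2 CPM (prior count 2); Otop1 and Thrsp in male control 1, Plin4 and genes of other cell types were named after their values were seen. Promoter windows are from RefSeq.

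Alternatives were RLE and upper-quartile factors, no filter, a minimum of 10 counts per library, DESeq2 1.42.0, only the groups compared, limma 3.58.1 on log2(FPKM + 1) or log2(FPKM + 0.1) with a mean FPKM of at least 0.5, or on log2(FPKM + 1) with no filter, the title number range as covariate, and leaving out libraries. The script was tested on simulated data for 18214 genes of the female comparison, with 200 changed. Of the 2-fold changes 66% were recovered and of the 4-fold changes 92%, and 4.24% of the calls were false. In the data 7218 genes were called in that comparison, so the simulation does not test the scaling under so many changes.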

Additional observations from a re-analysis of the deposited data

Results flagged for a closer look

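The fall in GOF adrenals differed between the sexes for 4 of the 10 genes, by the interaction term of the edgeR fit (Benjamini-Hochberg adjusted p), beside 2.61% of all genes called in that direction. The difference of log2 fold changes, males minus females, was -2.55 for Cidec (adjusted p = 0.0231), -2.04 for Cfd (adjusted p = 0.0388), -1.92 for Adipoq (adjusted p = 0.0191) and -1.83 for Retn (adjusted p = 0.0408). In each, all 4 male and all 4 female GOF libraries lay below the controls of their sex, so that the direction was the same. The calls of Cfd and Retn were each lost in 20 of 28 alternatives, and the count fell to 0 without male GOF 4.

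In 2 of 40 groups of 4 libraries, 1 library lay far from the other 3 by Dixon's ratio of the gap to the range, where chance gives about 1 in 20. Ucp1 was at 98.5 CPM in female control 1, with a ratio of 0.884; the other 3 female controls held 30.7 to 38.5 CPM. The same library was also the one with the highest kidney gene level, and the part of that in its Ucp1 value was not tested. Pparg was at 7.10 CPM in male GOF 1, with a ratio of 0.865, where the other 3 male GOF libraries held 4.75 to 5.07 CPM. The macrophage list summed to 1789 CPM in that library, against 613 to 727 in the other 3, and its part in the Pparg value was not tested.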

How the results depend on the processing

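The 9 falls in females and 10 in males held their direction under every alternative, and the counts stayed within 7 to 9 and 8 to 10; leaving out 1 library in turn gave 8 to 9 and 9 to 10. A filter of at least 10 counts in every library left out Lep and Ucp1. Ucp1 was the gene whose call was lost, in 12 of 28 alternatives in females and 11 of 28 in males.

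The comparisons of sex depended more on the setting, and their causes were not tested. In controls, 2 genes were called, but 0 with no filter, 1 with limma on log2(FPKM + 1) with no filter, 0 with the title number range as covariate, 0 without female control 1, female control 3 and male control 2, and 6 without male control 1 and female GOF 1 (added after the data were seen); leaving out 1 library gave 0 to 6. In GOF, 3 were called, but 1 with the title number range and 5 without male control 1 and female GOF 1; leaving out 1 library gave 2 to 4. For the interaction, 4 were called, but 2 with upper-quartile factors, 2 with limma on log2(FPKM + 1) and 2 on log2(FPKM + 0.1), 0 with limma and no filter, 0 with no filter, 2 without female control 1 and male control 2, and 0 without these and female control 3; leaving out 1 library gave 0 to 5. Ratios of group medians changed sign within the first title range for Plin1 between genotypes in females (log2 ratio -0.56), Lep between sexes in controls (-1.20) and Pparg between sexes in GOF (0.43), with 1 to 3 libraries a side.

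Over all genes, the count called in females was 7218, and 4554 without female control 1, female control 3 and male control 2. Between sexes in controls it was 4266, against 1311 with the title number range, 2650 without female control 3 and 1648 without those 3 libraries. Between sexes in GOF it was 5394, and 1336 with the title number range. For the interaction it was 766, against 1466 with DESeq2, 408 with no filter, 407 with limma and no filter, 440 with the title number range, 448 and 175 without the 2 and the 3 libraries, 1150 without male control 1 and female GOF 1, and 377 to 953 without 1 library. Upper-quartile factors turned the share of interaction calls that were higher from 37.9% to 62.6%. With limma on log2(FPKM + 0.1) the median gene in males was at 0.12, against 0.01 in the edgeR fit.

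No paired analysis was possible because the labels share no replicate numbers across groups; the numbers used here follow the accessions. The depth leaves Lep, with 7 to 61 counts in female GOF, and Ucp1 in female GOF 1, with 0 counts, the least precise. With 4 libraries a group and 1 tissue sample a mouse, the p-values set group differences against the spread between mice. They say nothing of cell numbers.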
